A study of Mus musculus with 8 samples.

Results

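Matrix metalloproteinases (Mmp), ADAMTS proteases (Adamts) and tissue inhibitors of metalloproteinases (Timp) were examined in whole embryonic mouse stomach. Members were all loci of the deposited table whose gene name was Mmp with a number and an optional letter, Adamts with a number, or Timp with a number. The rule found 47 loci with 46 distinct names among 26747 loci, namely 23 Mmp, 20 Adamts and 4 Timp loci, and it used no measured value. Adamts19 was listed in 2 loci on the same coordinates. The 4 mutant libraries came from E13.5 stomachs of embryos with Nkx3.2Cre and R26-YAP5SA, called YAP5SA here. In these embryos Cre made under control of Nkx3-2, a gene of the stomach mesenchyme, switches on a mutant YAP, a coactivator of transcription, which is no longer held back by Hippo signalling. The 4 other libraries came from E13.5 stomachs labelled wild type. No library had Cre alone, so effects of Cre and of active YAP cannot be told apart.

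The members act on the extracellular matrix, the scaffold that mesenchymal cells lay down around them. MMPs are zinc-dependent endopeptidases, made as inactive precursors, that cut collagens, gelatin, laminins and cell surface proteins. Some are secreted and others, the membrane-type enzymes, are anchored at the cell surface. ADAMTS proteases are secreted, carry thrombospondin repeats that hold them to the matrix, and fall into groups that cut large proteoglycans such as versican and aggrecan, that trim procollagen, or that act around fibrillin microfibrils. TIMPs bind the active site of MMPs and block it, and Timp3 also inhibits several ADAM and ADAMTS enzymes. In developing gut, matrix turnover accompanies the folding, layering and innervation of the wall.

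Each library held 7.29 to 8.51 M fragments in YAP5SA and 6.33 to 6.92 M in wild type. Levels of a gene between libraries are given as CPM (fragments per M fragments, on library sizes scaled by TMM), and levels of different genes as FPKM, which takes gene length into account. Xist, the RNA of the inactive X chromosome, was at 836 to 998 CPM in 3 YAP5SA libraries and at 0.967 CPM in replicate 2. In wild type it was at 1070 CPM in replicate 4 and at 0.441 to 2.07 CPM in the others, so embryo sex is unevenly spread over the genotypes. Summed markers of stomach mesenchyme were at 2410 to 2770 CPM in YAP5SA and 2890 to 2990 CPM in wild type, without overlap. Of their 11 loci 3 fell, Foxf1a (−0.74 on the log2 scale), Foxf2 (−0.85) and Col3a1 (−0.22), and 8 did not pass, Barx1 and Nkx3-2 among them. Endothelial and mesothelial sums overlapped between genotypes, at 872 to 1010 and 366 to 406 CPM in YAP5SA and 757 to 909 and 352 to 571 CPM in wild type. Of 13 gastric epithelial markers 12 fell, with sums of 629 to 907 CPM in YAP5SA and 1160 to 1370 CPM in wild type. Enteric neuron markers fell at 8 of 12 loci (sums of 422 to 485 CPM in YAP5SA and 679 to 794 CPM in wild type), glial and neural crest markers at 7 of 8, and smooth muscle markers at 7 of 10. Macrophage markers rose at 9 of 11 loci, with sums of 607 to 904 CPM in YAP5SA and 341 to 468 CPM in wild type. Markers of chondrocytes and osteoblasts rose at 3 of 7 loci (176 to 247 CPM in YAP5SA and 131 to 174 CPM in wild type), and those of skeletal muscle at 3 of 6. In such bulk samples, fewer cells of a type and less RNA per cell cannot be told apart.

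Some ADAMTS genes rose in YAP5SA stomachs, MMP genes were called about as often as loci in general, and most members of each family did not pass the test. By edgeR's quasi-likelihood test, 7 of 18 tested Adamts loci rose, 1 of 12 tested Mmp loci rose and 2 fell, and 0 of 3 tested Timp loci passed. A call was an adjusted p under 0.05 after Benjamini-Hochberg adjustment over all 14574 loci tested, and every adjusted p below is from this fit unless another is named. Over all tested loci, 9.06% rose and 9.85% fell, 18.9% in either direction, and the share of Mmp loci with a call was not far from this. The median log2 fold change (YAP5SA minus wild type) was 0.31 for the Adamts loci, 0 for the Mmp loci and 0.1 for the Timp loci, beside −0.01 over all tested loci. CPM values of the genotypes did not overlap at 9 of 18 Adamts, 3 of 12 Mmp and 1 of 3 Timp loci, 13 of 33 tested members. The share over all tested loci was 23.3%, and that of the Mmp loci lay near it. The Adamts loci with a fall numbered 0 by edgeR (2 at an unadjusted p under 0.05), 0 by DESeq2 and 0 by limma-voom. By these 3 fits 0 Timp loci were called, with 1 higher and 0 lower at an unadjusted p under 0.05 in edgeR. Timp1 was called higher in 4 of the 20 alternative settings given below.

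**Figure D1:**
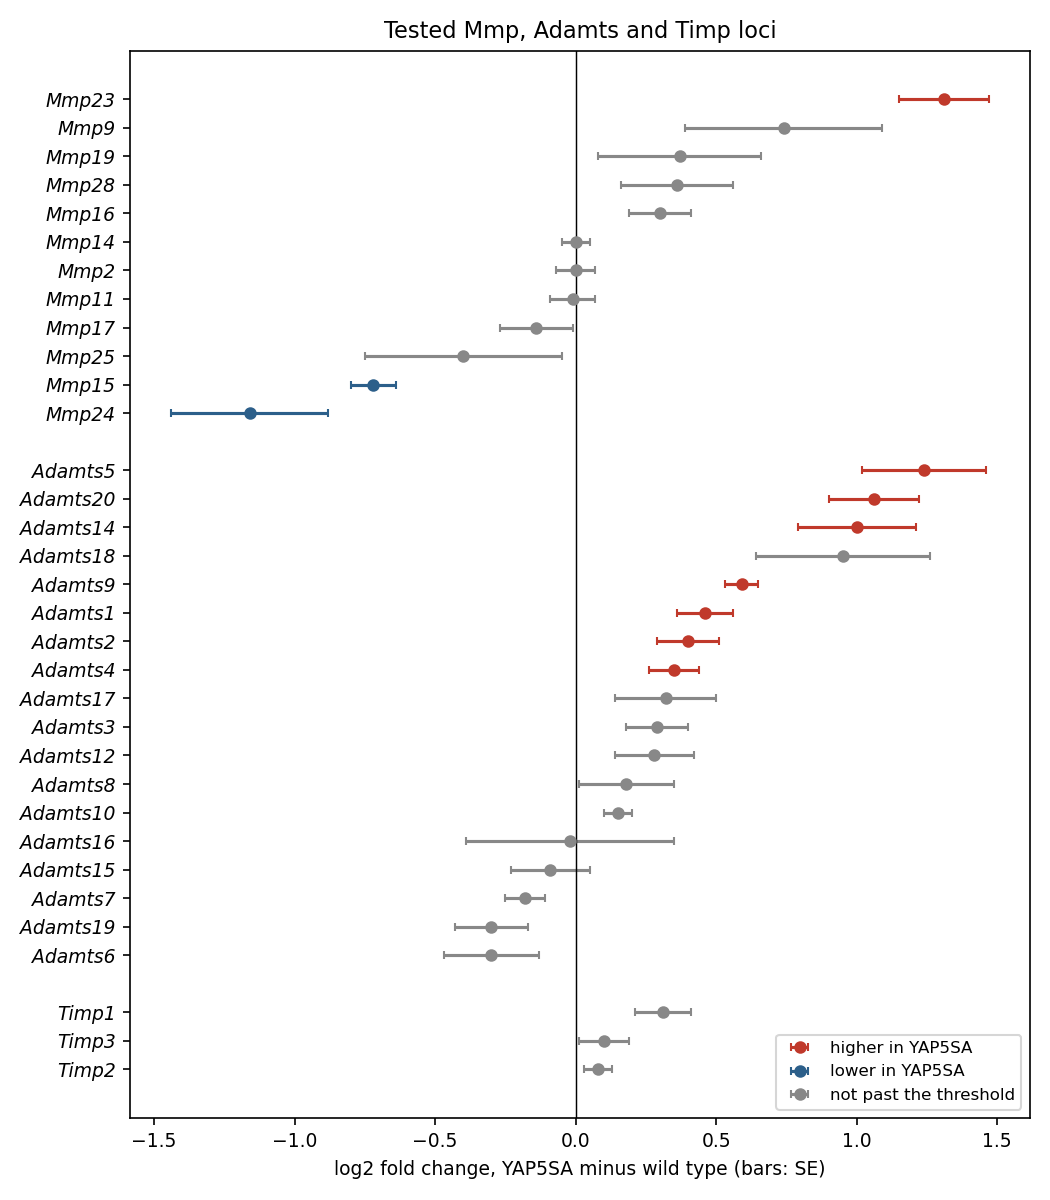
Log2 fold change (YAP5SA minus wild type, x axis) of the 33 tested loci, by family and by size, with bars for the standard error. The 7 Adamts loci and Mmp23 past the threshold lie right of 0, and Mmp15 and Mmp24 lie left of it, while Mmp14, Mmp2 and Mmp11 sit at or next to 0.

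Of the 7 Adamts loci that rose, 5 encode enzymes that cut hyalectans, the large hyaluronan-binding proteoglycans. Among the 7 tested enzymes of this group 5 rose, with a median log2 fold change of 0.46. Adamts5, an aggrecanase (chromosome 16, 85858157 to 85903009, mm10), was at 126, 99.9, 99.7 and 69.4 CPM in YAP5SA replicates 1 to 4, against 48.9, 39.7, 54.0 and 24.9 CPM in wild type replicates 1 to 4. Every YAP5SA library lay above every wild type library, and replicate 4 was the lowest of each genotype. The log2 fold change was 1.24 ± 0.22 (SE, n = 4, adjusted p = 0.0036), a 2.36-fold higher level. Adamts20, known in mice from the belted coat mutation of pigment cell precursors (chromosome 15, 94270163 to 94404350), was at 78.1, 49.1, 53.7 and 60.8 CPM in YAP5SA and 22.7, 28.8, 30.3 and 33.8 CPM in wild type. It rose by 1.06 ± 0.16 (adjusted p = 0.0012), again without overlap.

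Adamts9, a versican-cutting enzyme that acts together with Adamts20 in mouse development, had the smallest SE of the members that rose. It stood at 290, 290, 288 and 301 CPM in YAP5SA, against 191, 195, 216 and 174 CPM in wild type (chromosome 6, 92772695 to 93111749). This deposited locus runs well past the RefSeq gene (92772699 to 92944450) and overlaps 9530026P05Rik. The log2 fold change was 0.59 ± 0.06 (adjusted p = 0.00019), the smallest adjusted p of all members. Adamts1, which cuts versican and lies 55 kb from Adamts5 (chromosome 16, 85793828 to 85803115), was at 217, 220, 243 and 252 CPM in YAP5SA and 191, 182, 173 and 132 CPM in wild type. It rose by 0.46 ± 0.10 (adjusted p = 0.01), so both neighbours on chromosome 16 were higher, Adamts5 by the larger amount.

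Adamts4, the other classical aggrecanase (chromosome 1, 171234775 to 171261994), was at 27.2, 28.9, 26.3 and 26.7 CPM in YAP5SA, against 19.7, 22.3, 21.1 and 22.6 CPM in wild type. The libraries did not overlap and the log2 fold change was 0.35 ± 0.09 (adjusted p = 0.022). Its counts were not whole in 4 libraries, and the call was lost with Xist as a covariate (adjusted p = 0.051), without wild type replicate 1 (0.051) and on log2(FPKM + 1) (0.093), at log2 fold changes of 0.35, 0.32 and 0.31. The remaining hyalectan-cutting enzymes did not pass. Adamts15 was at 133 ± 15.0 CPM in YAP5SA and 141 ± 30.9 CPM in wild type (SD, n = 4), with a 95% interval of the log2 fold change from −0.39 to 0.21. Its neighbour Adamts8, 20 kb away, was at 42.3 ± 7.06 CPM in YAP5SA and 37.4 ± 8.58 CPM in wild type (interval −0.19 to 0.55).

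**Figure D2:**
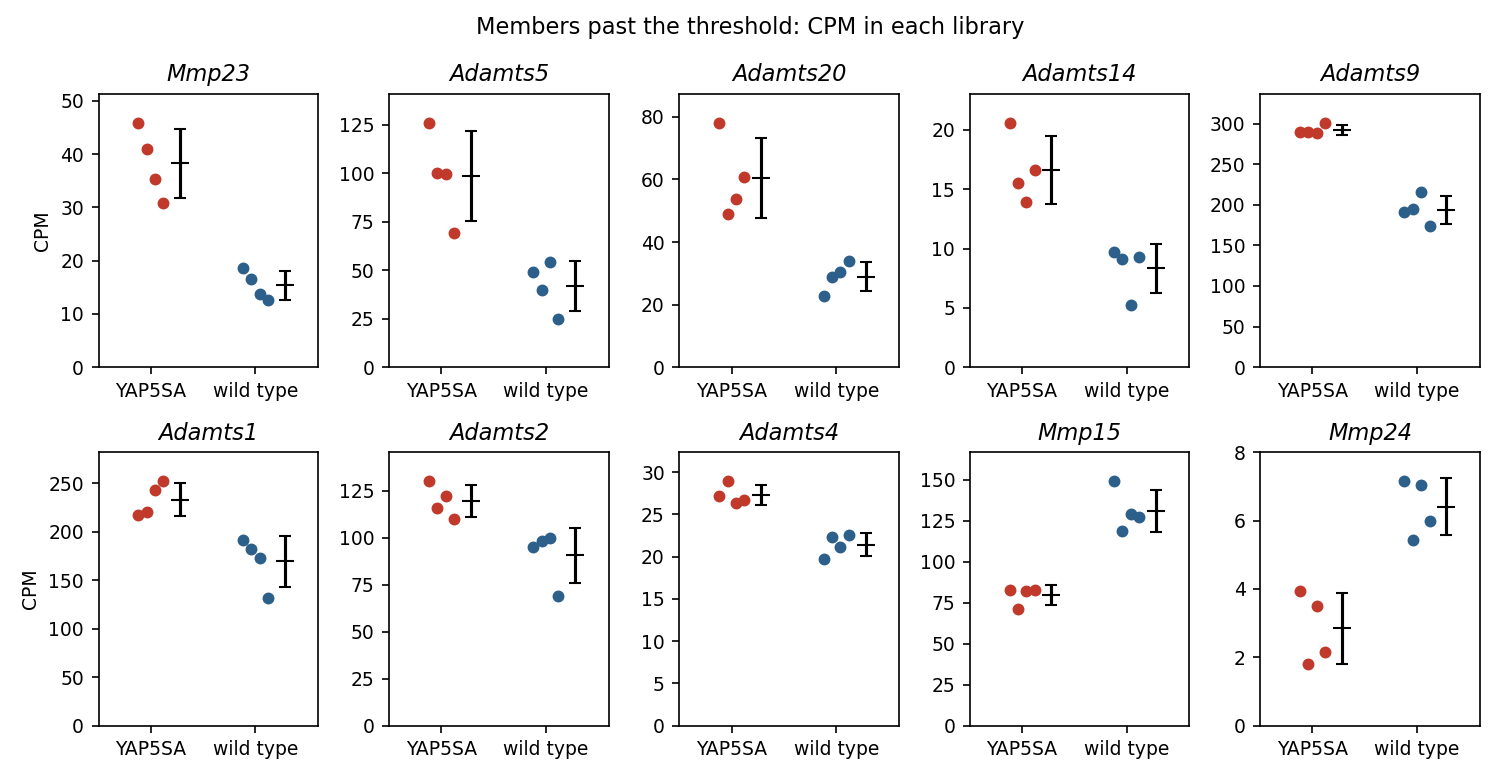
CPM of the 10 members past the threshold in each library, with mean and SD (n = 4) beside the points. In every panel the genotypes do not overlap: 8 genes are higher in YAP5SA, and Mmp15 and Mmp24 are lower.

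Enzymes that remove the N-propeptide of procollagens rose in 2 of 3 cases. Adamts14 (chromosome 10, 61197112 to 61273438) was at 20.6, 15.5, 13.9 and 16.6 CPM in YAP5SA, against 9.69, 9.11, 5.25 and 9.32 CPM in wild type. The log2 fold change was 1.00 ± 0.21 (adjusted p = 0.0083), and wild type replicate 3 was the low one of its group. Adamts2, the enzyme lost in dermatosparaxis, a disease of fragile skin (chromosome 11, 50602052 to 50807562), was at 130, 116, 122 and 110 CPM in YAP5SA and 95.3, 98.1, 100 and 68.8 CPM in wild type. It rose by 0.40 ± 0.11 (adjusted p = 0.026), without overlap, but missed the threshold without YAP5SA replicate 1 (0.36, adjusted p = 0.055) or 3 (0.39, adjusted p = 0.071). Adamts3, which also activates the lymphatic growth factor VEGF-C, was at 31.7 ± 2.93 CPM in YAP5SA and 26.0 ± 3.29 CPM in wild type (0.29 ± 0.11, adjusted p = 0.1).

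The other ADAMTS genes did not pass. Adamts18 was at 5.63, 6.36, 6.07 and 13.1 CPM in YAP5SA, against 4.13, 3.38, 4.20 and 4.42 CPM in wild type. The genotypes did not overlap and the log2 fold change was 0.95 ± 0.31, with an adjusted p of 0.054 and of 0.041 with replicate number as a block. Adamts18 passed in 4 of the 20 alternatives, the block among them. YAP5SA replicate 4 was the high library, and without it the log2 fold change was 0.59 (adjusted p = 0.11). Adamts10, which acts on fibrillin microfibrils, differed little but without overlap, at 168 ± 3.98 CPM in YAP5SA and 151 ± 9.13 CPM in wild type (0.15 ± 0.05, adjusted p = 0.062). It passed by DESeq2 (adjusted p = 0.04), on both log2 FPKM scales (0.039 each) and without wild type replicate 4 (0.036). Adamts12, which cuts the cartilage oligomeric matrix protein, was at 83.3 ± 11.9 CPM in YAP5SA and 68.6 ± 12.9 CPM in wild type (0.28 ± 0.14, adjusted p = 0.19). Adamts7, with the same substrate, was at 109 ± 11 CPM in YAP5SA and 123 ± 6.39 CPM in wild type (−0.18 ± 0.07, adjusted p = 0.12). Adamts17 was at 85.4 ± 10.5 CPM in YAP5SA and 68.2 ± 20.8 CPM in wild type (adjusted p = 0.26).

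Adamts6 and Adamts19 had lower means in YAP5SA. Adamts6 was at 56.8, 35.0, 33.1 and 41.1 CPM in YAP5SA and 41.3, 52.9, 53.7 and 57.3 CPM in wild type (−0.30 ± 0.17, adjusted p = 0.25). The main Adamts19 locus was at 55.1 ± 12.3 CPM in YAP5SA and 68.2 ± 4.76 CPM in wild type (−0.30 ± 0.13, adjusted p = 0.15). Replicate 1 was the highest YAP5SA library for both, and without it both passed as lower, at −0.49 (adjusted p = 0.021) and −0.43 (0.025). Its second locus held 11 fragments, all in YAP5SA replicate 3. Adamts16 spread widely within genotypes, at 43.2, 20.2, 18.5 and 17.6 CPM in YAP5SA and 39.1, 22.2, 28.2 and 11.7 CPM in wild type, which leaves an interval of −0.83 to 0.80. Adamts13, which cuts the clotting protein von Willebrand factor, had 14 fragments in all in YAP5SA and 8 in wild type, too few for the test.

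Among the membrane-anchored MMPs, Mmp15 and Mmp24 fell and Mmp23 rose. Mmp15, a transmembrane MMP (chromosome 8, 95352295 to 95375076), was at 82.8, 70.9, 82.4 and 82.6 CPM in YAP5SA, against 149, 119, 129 and 127 CPM in wild type. The genotypes lay far apart, and Mmp15 fell by 0.72 ± 0.08 on the log2 scale (adjusted p = 0.00024). The gastric epithelial markers given above were also lower in YAP5SA (median log2 fold change −1.05), and their part in the fall of Mmp15 was not tested. Mmp24, a transmembrane MMP known from neurons (chromosome 2, 155775344 to 155819242), was at 3.95, 1.80, 3.51 and 2.15 CPM in YAP5SA and 7.15, 5.44, 7.05 and 6.0 CPM in wild type (−1.16 ± 0.28, adjusted p = 0.016). For enteric neuron markers the median log2 fold change was −0.94 in the same libraries, and their part was not tested either. Counts of Mmp24 were not whole in any of the 8 libraries, and its locus overlaps BC029722. On log2(FPKM + 1), which understates changes of low genes, its value was −0.62 (adjusted p = 0.011).

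Mmp23, a small membrane-tethered MMP without the hemopexin domain of its relatives (chromosome 4, 155650655 to 155653387), rose about as much as Adamts5. It was at 45.9, 41.0, 35.3 and 30.9 CPM in YAP5SA, against 18.6, 16.6, 13.8 and 12.6 CPM in wild type. The lowest YAP5SA library lay well above the highest wild type library, and the log2 fold change was 1.31 ± 0.16 (adjusted p = 0.00038), a 2.48-fold higher level.

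The remaining membrane-type enzymes did not pass. Mmp14, the transmembrane MMP that activates the precursor of Mmp2, was at 212, 225, 230 and 225 CPM in YAP5SA and 231, 220, 230 and 211 CPM in wild type. Its log2 fold change was 0.00 with a 95% interval from −0.10 to 0.11. Mmp16 was at 97.7, 90.5, 108 and 124 CPM in YAP5SA and 71.2, 87.5, 96.3 and 85.3 CPM in wild type (0.30 ± 0.11, adjusted p = 0.082). One wild type library lay within the YAP5SA range. Mmp16 passed with replicate number as a block (adjusted p = 0.041), by DESeq2 (0.049) and without YAP5SA replicate 2 (0.042). Mmp17, held at the membrane by a lipid anchor, was at 44.0 ± 8.20 CPM in YAP5SA and 48.6 ± 4.05 CPM in wild type (interval −0.43 to 0.14). Mmp25, with the same kind of anchor, was at 2.15 ± 0.898 CPM in YAP5SA and 2.83 ± 0.830 CPM in wild type (interval −1.17 to 0.38).

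The secreted MMPs expressed in this tissue were close between genotypes or varied too much for a call. Mmp2, a gelatinase of mesenchymal cells, was at 183, 201, 197 and 193 CPM in YAP5SA and 184, 207, 211 and 172 CPM in wild type, with an interval of −0.15 to 0.15. Mmp11, a stromelysin-like enzyme of stromal cells, was at 98.3 ± 8.20 CPM in YAP5SA and 98.9 ± 8.49 CPM in wild type (interval −0.18 to 0.16). Mmp9, the gelatinase typical of leukocytes and osteoclasts, was at 18.3, 11.7, 7.96 and 9.93 CPM in YAP5SA, against 3.97, 8.23, 11.2 and 5.21 CPM in wild type. The genotypes overlapped, and its log2 fold change of 0.74 ± 0.35 had an adjusted p of 0.18 and an interval of −0.03 to 1.51. The value was 0.47 (adjusted p = 0.39) with YAP5SA replicate 1 left out and 1.05 (adjusted p = 0.072) with wild type replicate 3 left out. Among macrophage markers, 9 of which rose, the median log2 fold change was 0.94, and their part in the level of Mmp9 was not tested. Mmp28 and Mmp19 were low, at 9.57 ± 2.02 and 5.76 ± 0.639 CPM in YAP5SA and 7.42 ± 0.742 and 4.45 ± 1.76 CPM in wild type, and neither passed (adjusted p = 0.25 and 0.43). Both share their span with other genes and had counts that were not whole in all 8 libraries.

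None of the TIMP genes passed the test. Timp1, which lies on the X chromosome (20870166 to 20874737, RefSeq on the same build), was at 23.8, 26.9, 24.0 and 23.2 CPM in YAP5SA, against 21.1, 20.7, 18.4 and 18.5 CPM in wild type. Its deposited locus is wider (20797791 to 20920918) and overlaps Araf and Syn1. The genotypes did not overlap, but the log2 fold change of 0.31 ± 0.10 missed the threshold with an adjusted p of 0.055. With Xist as a covariate the value was 0.39 and passed (adjusted p = 0.044), as it did on log2(FPKM + 1) (0.0071). Timp2, which takes part in the activation of Mmp2 by Mmp14, was at 217 ± 6.92 CPM in YAP5SA and 205 ± 9.73 CPM in wild type (interval −0.02 to 0.19). Timp3, the matrix-bound inhibitor, was at 226 ± 27.8 CPM in YAP5SA and 212 ± 18.0 CPM in wild type (interval −0.10 to 0.30). Timp4 had 4, 5, 2 and 1 fragments in YAP5SA and 16, 2, 8 and 13 in wild type, too few for the test. Its ratio of summed CPM was 0.264, with a 95% interval of 0.126 to 0.514 that covers counting error only, and without a filter on low counts the adjusted p was 0.075.

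Per length, the baseline of this tissue was carried by a few genes of each family. Mmp14 was at 69.4 ± 2.81 FPKM in YAP5SA and 68.6 ± 2.66 FPKM in wild type, and Mmp2 at 67.2 ± 2.69 FPKM and 66.7 ± 6.27 FPKM in the same order. Timp2 followed at 62.5 ± 1.93 FPKM in YAP5SA and 58.6 ± 2.80 FPKM in wild type, and Timp3 at 49.8 ± 6.16 FPKM and 46.2 ± 3.88 FPKM. Mmp14 and Mmp2 lay within each other's spread in both genotypes. Mmp11 was at 49.4 ± 4.31 FPKM in YAP5SA and 49.6 ± 3.57 FPKM in wild type. The most abundant ADAMTS gene was Adamts1 in YAP5SA, at 49.0 ± 3.54 FPKM, and Adamts10 in wild type, at 37.9 ± 1.95 FPKM, where Adamts1 stood at 35.4 ± 5.37 FPKM within the spread. Mmp23 was at 29.7 ± 4.50 FPKM in YAP5SA and 11.9 ± 2.33 FPKM in wild type, and Mmp15 at 17.8 ± 1.28 FPKM in YAP5SA and 28.7 ± 2.86 FPKM in wild type, so these genes swapped places in the order. Adamts3, Adamts14 and Adamts18 had the lowest means of the tested ADAMTS genes in both genotypes, Adamts18 at 1.65 ± 0.754 FPKM in YAP5SA and 0.847 ± 0.0954 FPKM in wild type.

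Summed over each family, FPKM was 265, 277, 281 and 271 for the Mmp loci in YAP5SA libraries 1 to 4, against 260, 266, 277 and 247 in wild type. These ranges overlap. The Adamts sums were 324, 286, 302 and 304 FPKM in YAP5SA and 249, 251, 270 and 222 FPKM in wild type, which do not overlap. The Timp sums were 152, 158, 146 and 136 FPKM in YAP5SA and 136, 132, 141 and 129 FPKM in wild type, and overlap. No test was made on sums over chosen genes.

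**Figure D3:**
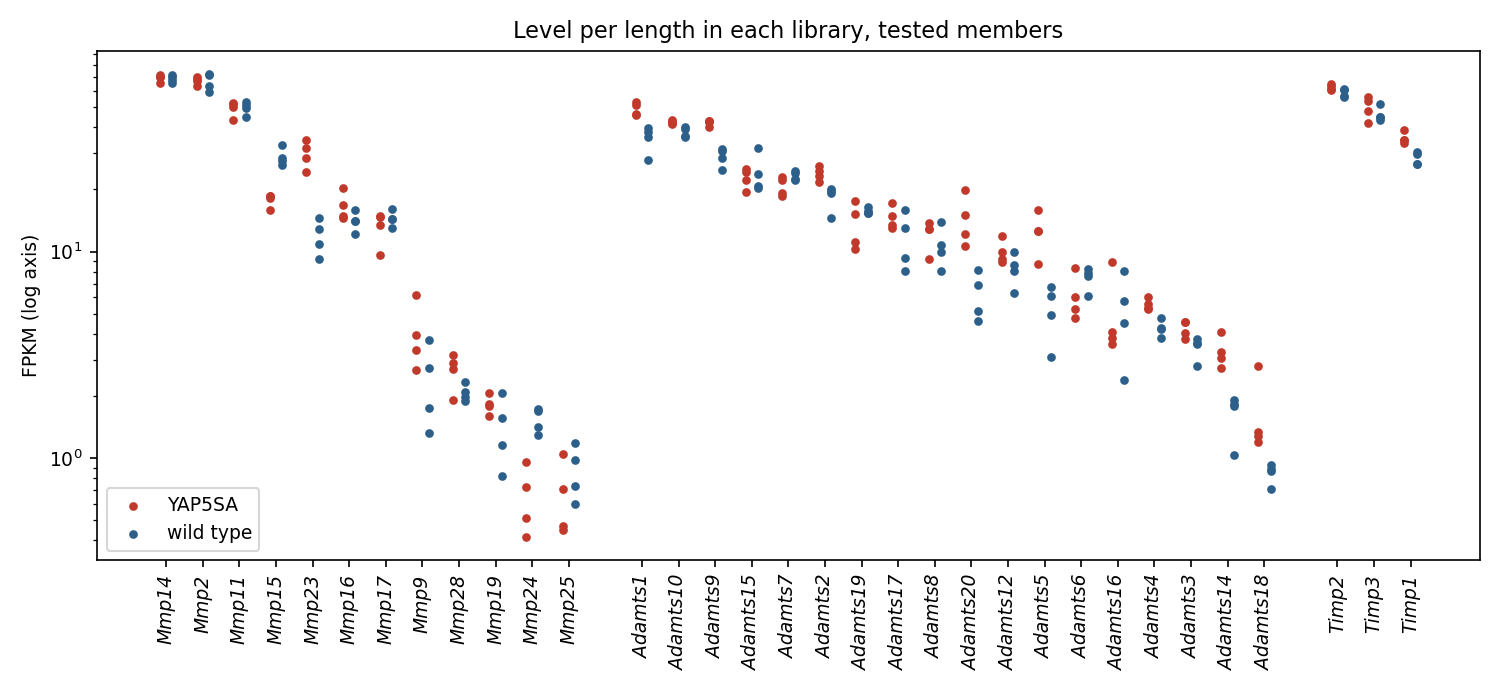
FPKM (log axis) of the tested members in each library, by family and in order of mean level. Mmp14, Mmp2, Mmp11, Timp2 and Timp3 lie near the top in both genotypes, and the points separate by genotype for Mmp23, Mmp15, Mmp24 and several ADAMTS genes.

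A cluster of 10 Mmp genes on chromosome 9 gave almost no fragments in either genotype. It spans 427 kb (7272514 to 7699416, mm10) and ends 233 kb before the locus of Yap1, the gene of which the transgene carries a mutant form. In order it holds Mmp13, Mmp12, Mmp1b, Mmp3, Mmp1a, Mmp10, Mmp8, Mmp27, Mmp20 and Mmp7: collagenases, stromelysins, a macrophage elastase, the enamel protease Mmp20 and the epithelial matrilysin Mmp7. Mmp1a, Mmp1b and Mmp10 were at 0 fragments in all 8 libraries, which allows up to 0.099 CPM in YAP5SA and 0.11 CPM in wild type (3 fragments over a genotype). Mmp8 had 8 fragments in YAP5SA and 15 in wild type (ratio 0.457, 95% counting interval 0.168 to 1.15). Mmp13, an interstitial collagenase of cartilage and bone, had 4, 6, 0 and 3 fragments in YAP5SA and 0, 2, 1 and 1 in wild type (ratio 2.79, counting interval 0.861 to 11.7). Both intervals hold 1, so no difference was detectable at this depth. Mmp7 had 3 fragments in each genotype, Mmp12 had 2 in each, Mmp3 had 2 in YAP5SA and 1 in wild type, and Mmp20 and Mmp27 had 2 and 1 in YAP5SA and 0 in wild type. Mmp21, on chromosome 7, had 1 fragment in YAP5SA and 0 in wild type.

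The genes on both sides of the cluster were expressed. Dcun1d5 on one side was at 82.2 ± 3.83 CPM in YAP5SA and 85.0 ± 1.93 CPM in wild type. On the other side Tmem123 was at 111 ± 3.63 CPM in YAP5SA and 124 ± 2.02 CPM in wild type, a fall that passed (log2 fold change −0.15, adjusted p = 0.032). Birc2 was at 87.1 ± 3.88 CPM in YAP5SA and 91.8 ± 4.09 CPM in wild type, Birc3 at 15.6 ± 1.42 and 12.9 ± 2.76 CPM, and Yap1 at 224 ± 13 and 232 ± 7.46 CPM in the same order. Birc2 (adjusted p = 0.38), Birc3 (0.32) and Yap1 did not pass (Yap1 log2 fold change −0.05, adjusted p = 0.55). Whether reads of the mutant YAP counted towards the Yap1 locus is unknown, so its level is no check of the transgene.

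**Figure D4:**
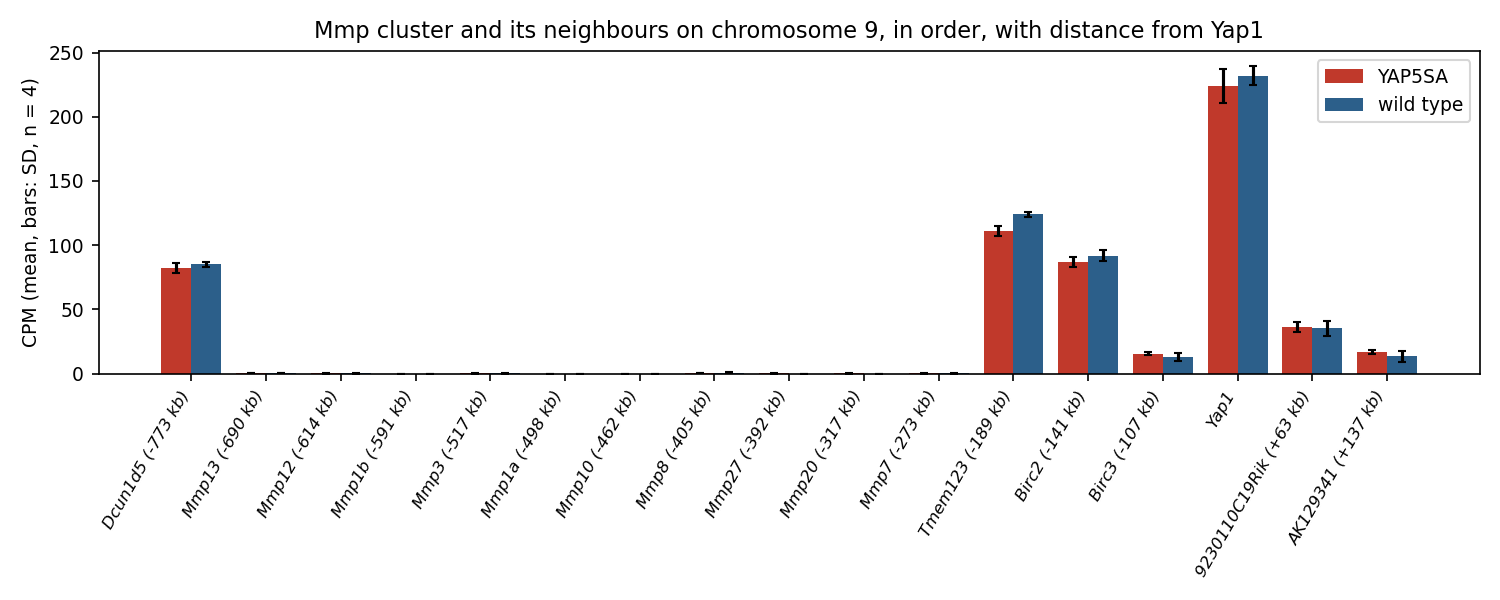
Mean CPM (bars: SD, n = 4) of named loci on chromosome 9 in their order, with the distance of each from Yap1 in kb. The 10 Mmp genes stand at or near 0 in both genotypes, while Dcun1d5 before them and Tmem123, Birc2 and Yap1 after them reach 82.2 CPM or more.

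Most genes of the cluster share promoter letters that are rare among the tested members. Promoter sequences of 300 bases (250 before to 50 after the start, RefSeq, GRCm38.p6, the same assembly as mm10) were found for 32 of the 46 names, 35 promoters in all. The letters TGANTCA, the binding motif of AP-1, were searched on both strands, as were GGAATG, the core motif of the TEAD partners of YAP, and TATAAA. None of these motifs contains another. TGANTCA occurred in 8 of the 10 cluster genes, and TATAAA in 9. Over all 32851 promoters of the same length the shares were 7.8% for TGANTCA, 13.6% for TATAAA and 14.7% for GGAATG. Among 20 promoters of tested members, TGANTCA was in 0, TATAAA in 1 (Adamts1) and GGAATG in 1 (Timp1). Of the untested members outside the cluster, Adamts13, Mmp21 and Timp4 lacked TGANTCA, while Mmp21 held TATAAA and Adamts13 held GGAATG. A match describes letters and not a binding site, and a missing match says only that the letters are not in this window.

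The stretch of 60 bases that begins 5 bases before TGANTCA is shown for the 8 cluster genes that hold it, so that the letters around both motifs can be compared. Capitals mark TGANTCA and TATAAA, and the strand is that of the gene.
Mmp13 (chr9:7272474-7272533, +): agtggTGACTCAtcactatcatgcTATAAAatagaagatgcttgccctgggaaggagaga
Mmp12 (chr9:7347325-7347384, +): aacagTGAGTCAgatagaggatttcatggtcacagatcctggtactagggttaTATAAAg
Mmp1b (chr9:7388065-7388124, -): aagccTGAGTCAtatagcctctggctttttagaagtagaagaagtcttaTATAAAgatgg
Mmp3 (chr9:7445771-7445830, +): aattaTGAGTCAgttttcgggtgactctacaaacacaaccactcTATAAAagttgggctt
Mmp1a (chr9:7464063-7464122, +): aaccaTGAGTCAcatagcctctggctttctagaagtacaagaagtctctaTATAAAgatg
Mmp10 (chr9:7502274-7502333, +): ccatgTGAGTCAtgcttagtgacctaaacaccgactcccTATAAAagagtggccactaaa
Mmp20 (chr9:7628131-7628190, +): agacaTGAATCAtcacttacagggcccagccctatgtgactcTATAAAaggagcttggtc
Mmp7 (chr9:7692022-7692081, +): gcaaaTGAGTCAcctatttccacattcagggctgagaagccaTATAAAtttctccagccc
Each window was chosen to start at TGANTCA, so the order of the motifs in it is partly set by that choice, and the Mmp7 promoter holds a further TATAAA before its TGANTCA. Mmp1a and Mmp1b are close copies with similar letters, and both were at 0 fragments.

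Promoters of tested members, whether past the threshold or not, were mostly richer in the dinucleotide CG than those of untested members, in the cluster or outside it. The untested Adamts13, Mmp21 and Timp4, which lie outside the cluster, held 2 CG each. Over the 20 promoters of tested members the CG count was 7 to 44, with a median of 22. The 7 promoters of genes that rose and the 2 of genes that fell held neither TGANTCA nor GGAATG. Those of rising genes held 18 to 44 CG (median 25), those of Mmp15 and Mmp24 22 and 44, and those of the cluster 0 to 7 (median 1), beside a median of 7 over all promoters. Promoters of Adamts9, Adamts20 and Mmp23, which rose, and of Mmp15, which fell, are shown with CG in capitals to make this visible. The table has no entry for Adamts4 and Adamts5.
Adamts9 (chr6:92943485-92943784, -): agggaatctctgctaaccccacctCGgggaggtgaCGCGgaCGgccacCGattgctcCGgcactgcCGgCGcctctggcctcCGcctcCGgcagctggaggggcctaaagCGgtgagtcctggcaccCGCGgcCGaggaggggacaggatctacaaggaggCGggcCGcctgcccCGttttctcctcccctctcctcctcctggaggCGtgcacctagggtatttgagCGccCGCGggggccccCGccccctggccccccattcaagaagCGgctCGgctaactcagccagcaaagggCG
Adamts20 (chr15:94404301-94404600, -): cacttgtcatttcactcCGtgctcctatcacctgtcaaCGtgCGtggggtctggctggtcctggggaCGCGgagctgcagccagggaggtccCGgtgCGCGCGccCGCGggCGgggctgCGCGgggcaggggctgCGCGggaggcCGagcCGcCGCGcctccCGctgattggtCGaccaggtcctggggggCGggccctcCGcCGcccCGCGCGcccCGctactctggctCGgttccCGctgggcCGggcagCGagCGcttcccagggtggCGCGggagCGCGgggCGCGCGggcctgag
Mmp23 (chr4:155653241-155653540, -): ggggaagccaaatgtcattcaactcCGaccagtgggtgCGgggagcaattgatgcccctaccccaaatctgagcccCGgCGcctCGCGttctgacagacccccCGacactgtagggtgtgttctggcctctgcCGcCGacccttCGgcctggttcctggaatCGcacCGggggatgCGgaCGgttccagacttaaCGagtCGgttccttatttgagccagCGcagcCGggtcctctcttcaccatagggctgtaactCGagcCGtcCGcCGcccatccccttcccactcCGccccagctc
Mmp15 (chr8:95352046-95352345, +): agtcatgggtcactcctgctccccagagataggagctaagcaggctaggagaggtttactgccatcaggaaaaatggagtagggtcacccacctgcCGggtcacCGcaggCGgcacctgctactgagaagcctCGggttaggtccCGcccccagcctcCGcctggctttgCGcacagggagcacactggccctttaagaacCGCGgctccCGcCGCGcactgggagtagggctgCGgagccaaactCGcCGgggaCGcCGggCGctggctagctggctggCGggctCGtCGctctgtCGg
Members that rose, that fell and that did not pass had CG counts in overlapping ranges, with 41 in the promoter of Adamts3, which did not pass.

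Genes that work with these proteases were read from lists chosen with earlier results of these data known. The counts of each list stand beside 9.06% higher and 9.85% lower over all tested loci. Of 20 tested activators, inhibitors and anchors of matrix proteases, 5 rose and 15 did not pass (median log2 fold change 0.15). Plau, which encodes the plasminogen activator urokinase, was at 77.3 ± 12.8 CPM in YAP5SA and 23.5 ± 3.92 CPM in wild type (1.71 ± 0.14, adjusted p = 6.9e-05). Its receptor gene Plaur rose by 1.37 ± 0.26 and the tissue plasminogen activator gene Plat by 0.62 ± 0.10. The proprotein convertase gene Pcsk5 rose by 0.58 ± 0.13 (adjusted p = 0.0092).

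Of 12 tested ADAM genes, many of whose products shed proteins from the cell surface, 4 rose and 4 fell (median 0.13). Adam9 was at 132 ± 6.27 CPM in YAP5SA and 82.2 ± 3.65 CPM in wild type (0.68 ± 0.05, adjusted p = 4.3e-05), and Adam12 and Adam15 rose by 0.58 ± 0.10 and 0.27 ± 0.06. Adam23, a nervous system member without protease activity, had a log2 fold change of −0.85 ± 0.18 (adjusted p = 0.0087), and the part of the lower neuronal markers in it was not tested. Larger falls with wider errors were those of Adam28 (−2.18 ± 0.52, adjusted p = 0.015) and Adamdec1 (−2.22 ± 0.54, 0.018). Adam11 fell by 0.50 ± 0.12 (0.017) and Adam19 rose by 0.17 ± 0.05 (0.04). Of 7 ADAMTS-like genes, which have the ancillary domains of ADAMTS and no protease domain, 2 rose (median 0.16): Adamtsl5 by 1.54 ± 0.25 and Adamtsl3 by 1.16 ± 0.23. The other tested members, Adamtsl2 (adjusted p = 0.18) and Thsd4 (0.41) among them, did not pass.

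Of 14 tested loci of other matrix proteases and their helpers, 6 rose and 3 fell (median −0.05). The serine protease gene Htra1 was at 76.5 ± 21.2 CPM in YAP5SA and 21.8 ± 6.20 CPM in wild type (1.81 ± 0.25, adjusted p = 0.00082). Pcolce2 and Pcolce, enhancers of the enzyme that removes the C-propeptide of procollagen, rose by 2.94 ± 0.41 and 0.48 ± 0.08, and Prss23 by 0.69 ± 0.10. Bmp1, which encodes that enzyme, had a log2 fold change of −0.20 ± 0.04 (adjusted p = 0.0091). The larger falls were those of Ctsk (−1.22 ± 0.25, adjusted p = 0.0072) and Htra3 (−0.57 ± 0.13, adjusted p = 0.014).

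The substrates of the hyalectan-cutting ADAMTS enzymes and their partners were mostly without a call: 1 of 7 tested genes fell and 6 did not pass (median −0.06). The one was Ncan, a neural proteoglycan, at 6.19 ± 0.988 CPM in YAP5SA and 11.9 ± 2.55 CPM in wild type (adjusted p = 0.011). Vcan, which encodes versican, was at 375 ± 66.0 CPM in YAP5SA and 500 ± 78.3 CPM in wild type (−0.41 ± 0.14, adjusted p = 0.06). Hapln1, a link protein that fixes these proteoglycans to hyaluronan, was at 21.1 ± 1.85 CPM in YAP5SA and 16.7 ± 0.839 CPM in wild type (0.34 ± 0.11, adjusted p = 0.056), and Has3, a hyaluronan synthase, had an adjusted p of 0.79.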

How the data were processed

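Messenger RNA profiles of E13.5 mouse stomach were taken from 8 libraries. Per the labels' protocols, frozen stomachs gave RNA by the Trizol method, and the kit was TruSeq RNA. The tools named are Cuffdiff, Cufflinks 2.2.1 and TopHat2 2.0.9, on build mm10, per the submitters' processing notes, which give no roles. Read filters, duplicate treatment and strand use are not given in the sources used here. The deposited per-library table holds raw fragments, which are estimated counts (10.9% to 11.3% were not whole), and FPKM values scaled by the authors. Group FPKM deposited in another table equalled the mean of the 4 libraries within 0.01. The table numbers libraries of a genotype from 0 and the labels from 1, and they were matched in that order, which does not touch the genotype. Nothing in the labels ties a library to its own embryo, so p-values measure only the spread between these libraries, part of which may be technical. No pair within a genotype agreed within counting error.

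Counts were rounded. Loci without a gene name (1.85% to 1.97% of fragments) stayed out. The fit used edgeR 4.0.16 in R 4.3.3 (quasi-likelihood, robust, TMM, filterByExpr with 10 fragments in enough libraries and 15 in total), with genotype as the only term, over 14574 loci, and was tested on simulated data. SE is the log2 fold change divided by the square root of F. Deposited starts were read as counted from 0, so 1 was added. Whether the replicate numbers pair the libraries is not known. Same-numbered libraries deviated together only weakly, with correlations of 0.23, 0.15, 0.16 and 0.23, and differently numbered ones had −0.27 to 0.10. The main fit used no pairing. With the replicate block the SE was smaller for some members (Adamts5, 0.10 in place of 0.22) and larger for others (Adamts1, 0.12 in place of 0.10). Members and gene lists were chosen with earlier results of these data known. Every member is named, with all libraries where it passed, and up to 4 genes of each related list with the smallest p, apart from an item not reported here. Pcsk5, Bmp1, Ctsk, Htra3, Adam28, Adamdec1, Adam11, Adam19, the neighbours of the Mmp cluster and the synapsins were named after their values were seen. Alternatives were DESeq2 1.42.0, limma 3.58.1 (voom, voom with quantile scaling, log2(FPKM + 0.1) and log2(FPKM + 1)), RLE and upper-quartile factors, no filter, a replicate block, Xist as a covariate, joined and repeated loci left out, each library left out, and, added after seeing the data, scaling within 20 bins of mean FPKM.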

Additional observations from a re-analysis of the deposited data

Results flagged for a closer look

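In 66 groups of 4 libraries (both genotypes of 33 tested members), a library was looked for whose distance to its nearest neighbour, as a share of the group's range, passed Dixon's 95% critical value. Chance gives about 1 such group in 20, and 7 were found. YAP5SA replicate 1 stood apart at 43.2 CPM for Adamts16, with the others at 17.6 to 20.2, and at 101 CPM for Adamts12, with the others at 75.5 to 78.8. YAP5SA replicate 4 stood apart at 13.1 CPM for Adamts18, with the others at 5.63 to 6.36, and at 301 CPM for Adamts9, with the others at 288 to 290. For Mmp15, YAP5SA replicate 2 was at 70.9 CPM and the others at 82.4 to 82.8. In wild type, replicate 3 was at 5.25 CPM for Adamts14, with the others at 9.11 to 9.69, and replicate 4 at 68.8 CPM for Adamts2, with the others at 95.3 to 100. Leaving out single libraries kept the calls of Adamts9 (log2 fold change 0.54 to 0.65), Mmp15 (−0.75 to −0.64) and Adamts14 (0.84 to 1.09).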

How the results depend on the processing

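Of 660 pairs of a tested member and one of 20 alternatives, 635 kept the direction or stayed off the threshold as reported, 7 lost a call, 18 gained one and 0 turned a call round. Of the 10 called members, 8 kept their call in all 20, and Adamts2 and Adamts4 lost theirs in some. Adamts2 also missed it with scaling within bins of mean FPKM (adjusted p = 0.052), and Adamts4 on log2(FPKM + 0.1) (0.1). The Mmp loci called higher numbered 2 by DESeq2 and 2 with the replicate block, in place of 1, and 1 to 2 with single libraries left out. The Adamts loci called lower numbered 0 to 2 with single libraries left out. The Timp loci called higher numbered 1 with quantile scaling, 1 on log2(FPKM + 0.1), 1 on log2(FPKM + 1) and 1 with Xist as a covariate. The Adamts loci called higher, 7 as reported, numbered 9 by DESeq2, 6 with Xist as a covariate, 6 to 8 with single libraries left out and 8 with the replicate block, through Adamts18. The block changed no other member's call besides Mmp16. Where an alternative changed a call, the cause was not tested. In 20 bins of mean FPKM the median log2 fold change was −0.15 in the lowest, bin 1, −0.14 in bin 2 and −0.08 in bin 3. It was −0.08 in the highest, bin 20, and −0.05 to 0.04 in the others. Members under the filter, 14 loci, could not be tested at this depth.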

Other observations

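The deposited coordinates of Timp1, Timp3 and Timp4 overlap the synapsin genes Syn1, Syn3 and Syn2, in whose introns these TIMP genes lie. Those of Timp1 also overlap Araf, and those of Timp3 also overlap Fbxo7 and 4930486F22Rik. The synapsin loci, which encode proteins of synaptic vesicles, had lower means in YAP5SA while Timp1 and Timp3 did not. Syn1 was at 2.46 ± 0.88 CPM in YAP5SA and 4.68 ± 1.54 CPM in wild type (adjusted p = 0.087), Syn2 at 4.91 ± 2.60 and 9.61 ± 2.01 CPM (adjusted p = 0.073), and Syn3 at 16.4 ± 3.16 and 25.7 ± 8.94 CPM (adjusted p = 0.086), by edgeR with n = 4 in each genotype. None passed the threshold. Timp4, the nested gene with few fragments, had 12 in YAP5SA and 39 in wild type. How fragments were shared between host and nested gene was not tested, and strand use is not stated.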
